A study of Homo sapiens with 10 samples.

Results

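The replication-dependent histone genes were studied in input RNA of A549 cells and of A549/DDP cells. The genes were chosen by name alone, as all symbols of the H2AC, H2BC, H3C and H4C series and H1-1 to H1-5, which gave 68 symbols. Of these, 64 were matched to a row of the deposited tables, which hold 58037 gene identifiers. H2AC18, H2AC19, H3C2 and H3C3 were not analysed here. The 64 genes comprised 5 H1, 15 H2A, 18 H2B, 11 H3 and 15 H4 genes. In the GRCh38.p14 RefSeq annotation 52 of them lie on chromosome 6, 9 on chromosome 1 near 149 Mb, 2 on chromosome 1 near 228 Mb and 1, H4C16, on chromosome 12.

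A549 is an established human lung adenocarcinoma line, and A549/DDP is its cisplatin-resistant derivative. Both lines grew in the same serum-supplemented medium, and the sources used here do not say whether A549/DDP cells were exposed to the drug when RNA was taken. Input libraries, made from RNA that was not pulled down with an antibody, formed 3 groups of 2: a first pair from A549, a pair from A549/DDP and a second pair from A549, which carries the titles of the first with an added full stop. The A549/DDP inputs are named as such by their titles, while their cell line field reads A549. In addition, each line had 2 m6A-seq libraries, in which RNA fragments are pulled down with an antibody against N6-methyladenosine. Nothing in the labels says that replicates came from separate cultures, so the p-values below measure only the spread between these libraries.

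Cells make most of their histone protein while DNA is copied, from gene copies that are used almost only in S phase. Most of the resulting mRNAs lack introns and end in a stem-loop that is bound by SLBP, in place of a poly(A) tail. Several of the genes can also give a longer or spliced polyadenylated transcript, whereas replication-independent variants such as H3-3A and H2AZ1 use ordinary polyadenylated mRNAs throughout the cell cycle. The study describes capture of poly(A) RNA on poly-T beads for m6A-seq. It also describes input mRNA libraries for RIP-seq, in which RNA bound to immunopurified YTHDF1 protein is sequenced. The labels do not say how the second pair of A549 inputs was made or to which experiment it belongs.

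Because the classes of these genes differ in promoter elements, some of which several classes share, the elements are shown first for the genes on which the results turn. RefSeq windows of 250 bases before to 50 bases after the transcription start (GRCh38.p14) were found for 59 of the 64 genes, and each motif was searched on both strands. The octamer ATTTGCAT, known from H2B promoters, was found in 14 of 18 H2B and 11 of 14 H2A genes with a window and in 2.19% of 27305 genes with a window. The windows below are written from 5′ to 3′ on the strand of the gene, with the motif or its reverse complement in capitals.

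H2BC12 (minus strand, chr6:27146886-27146915): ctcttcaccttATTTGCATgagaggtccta
H2BC21 (minus strand, chr1:149886710-149886739): tcggagccctaATTTGCATaaggtggttat
H2BC4 (minus strand, chr6:26124031-26124060): tttcatacctcATTTGCATagctctgccca
H2AC6 (plus strand, chr6:26124031-26124060): tgggcagagctATGCAAATgaggtatgaaa

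In H2BC21 the octamer began 46 bases before the start of transcription. H2BC4 and H2AC6 are divergent neighbours, and the octamer between them is the same site read on opposite strands. GGTCCG, the core of an element of H4 promoters, was found in 12 of 13 H4 genes with a window, in 3 of the other 46 members and in 13.4% of all genes. It is shown for H4C5 and for the pair H4C14 and H4C15, whose 300-base windows are identical.

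H4C5 (plus strand, chr6:26204552-26204581): agtcttcatttaGGTCCGaattcccggcat
H4C14 (plus strand, chr1:149832599-149832628): ggttttcaatctGGTCCGatactcttgtat

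AAACACA, known as the H1 box, was found in 5 of 5 H1 genes and in 6.94% of all genes. It is shown for H1-2 and H1-4, the H1 genes with the most counts in the second pair.

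H1-2 (minus strand, chr6:26056571-26056600): tgaggtggaacAAACACAacttgggagcag
H1-4 (plus strand, chr6:26156201-26156230): tgaggtgtaacAAACACAactcgggatccg

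CCAAT was present in all 46 windows of the H1, H2A, H2B and H3 genes but in 3 of 13 of the H4 genes, against 39.7% of all genes. TATAAA was present in 40 of the 59 windows, against 13.99% of all genes. These matches describe the letters of the windows only.

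The input libraries differed in depth. The first A549 pair and the A549/DDP pair held 29225501 to 35286514 expected counts, that is, estimated reads per gene, of which 0.0363% to 0.0547% fell on genes of the mitochondrial genome. The second pair held 855034 and 982036, of which 75.2% and 73.9% were mitochondrial, leaving 211799 and 256064 counts for all nuclear genes. Levels are therefore given as CPM, that is, scaled to a total of 1000000 counts outside the mitochondrial genes in each library, where 1 count was worth 0.0283 to 0.0342 CPM in the deep libraries and 4.72 and 3.91 CPM in the second pair. The keratin genes KRT8 and KRT18 were abundant in all 6 libraries (at least 250.2 CPM), CDH1 was at 18.9 to 316.1 CPM, KRT19 at 0 to 42.2 CPM and EPCAM at 0 to 5.82 CPM. The leukocyte and endothelial genes PTPRC, CD3E, PECAM1 and CDH5 were at or below 0.434 CPM, the fibroblast genes COL1A1, COL1A2 and COL3A1 were at or below 18.01 CPM, and of the alveolar genes SFTPC was at 0 in every library and SFTPB and NKX2-1 at or below 1.03 CPM. Of the 5 epithelial genes 3, KRT8, KRT18 and CDH1, were called higher in A549/DDP than in the first A549 pair by the test below. Among all genes in that test 6.85% were called higher.

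Histone RNA made up a small part of the first A549 pair and of A549/DDP. All 64 genes together held 3939 and 4246 counts in A549 and 3177 and 3766 in A549/DDP, equal to 111.7 and 122.9 CPM and to 108.8 and 110.9 CPM. As a share of nuclear counts this was 0.0112% (95% Wilson interval 0.0108% to 0.0115%) and 0.0123% (0.0119% to 0.0127%) in A549, and 0.0109% (0.0105% to 0.0113%) and 0.0111% (0.0107% to 0.0115%) in A549/DDP, intervals that cover counting error only. The 2 lines thus differed by less in the sum than the A549 replicates did. On the scale of the test below the log2 difference of the sums was -0.15. Summed TPM, which divides by transcript length, were 184.3 and 207.8 in A549 and 263.8 and 318.8 in A549/DDP. Without the single gene H2BC12, whose deposited gene model is short, they were 165.7 and 193.8 against 154.6 and 115.6. The direction of the summed TPM therefore rests on H2BC12.

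Under that similar sum the classes differed in direction. H2A RNA was at 37.2 and 38.1 CPM in A549 and at 18.1 and 14.2 CPM in A549/DDP. H2B RNA was at 25.1 and 29.96 CPM in A549 and at 44.6 and 56.8 CPM in A549/DDP. Neither class overlapped between the lines, and no test was made of these sums. H2B without H2BC12 was at 21.8 and 27.7 CPM against 25.7 and 23.2 CPM, which overlap, so the difference in H2B came down to 1 gene. H1 RNA (17.4 and 10.4 against 11.6 and 13.1 CPM) and H3 RNA (7.60 and 8.36 against 10.5 and 8.54 CPM) differed little, and H4 RNA was at 24.3 and 36.1 CPM in A549 and 24.0 and 18.2 CPM in A549/DDP.

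**Figure D1:**
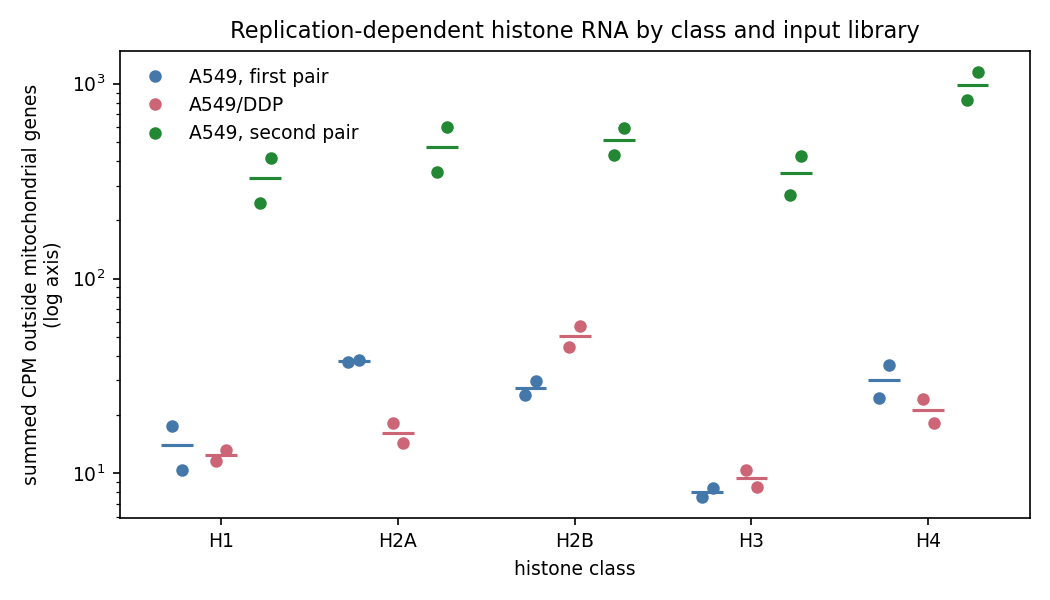
Summed CPM outside the mitochondrial genes (log axis) for the histone genes of each class, with 1 point per input library and a line at the mean of the 2 libraries of each group. H2A was lower and H2B higher in A549/DDP than in the first A549 pair, and the second A549 pair lay above both other groups in all 5 classes.

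Gene by gene, A549/DDP was compared with the first A549 pair by the quasi-likelihood test of edgeR, and p-values were adjusted by Benjamini-Hochberg over all 16406 genes that passed the filter on low counts. Of the 64 histone genes 18 passed the filter. Only 1 of them passed an adjusted p-value of 0.05, and it was higher in A549/DDP. Among all tested genes 14.9% were called, 6.85% as higher and 8.0% as lower. The median log2 fold change of the 18 was -0.09, against -0.0016 for all genes.

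The called gene was H2BC12 (ENSG00000197903.7, chr6:27138293-27146858), which encodes an H2B of the chromosome 6 cluster. It had 115 and 77 counts in the A549 libraries and 551 and 1139 in the A549/DDP libraries, or 3.26 and 2.23 CPM against 18.9 and 33.5 CPM. Both A549/DDP values lay above both A549 values. The log2 fold change was 3.18 ± 0.52 (SE), with an adjusted p of 0.0142 by edgeR. H2BC12 held 2.37% of the histone counts in A549 (mean of 2 libraries) and 23.8% in A549/DDP, where it ranked first. Its deposited gene model was a single transcript of 381 bases, whereas the RefSeq gene spans 8566 bases.

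H2AC6, an H2A gene (ENSG00000180573.9, chr6:26124172-26124690), had the most counts of all members in A549. It had 1088 and 1108 counts in A549 and 468 and 301 in A549/DDP, or 30.8 and 32.1 CPM against 16.0 and 8.86 CPM. The groups did not overlap, but the log2 fold change of -1.40 ± 0.39 (SE) did not pass the adjustment, with an adjusted p of 0.0640 by edgeR. DESeq2 gave a log2 fold change of -1.39 and an adjusted p of 0.0149. H2AC6 accounted for most of the difference in the H2A class, since the other 2 tested H2A genes, H2AC11 (81 and 81 counts in A549, 3 and 103 in A549/DDP) and H2AC25 (126 and 64 against 43 and 71), were less abundant.

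The other abundant members overlapped or did not pass the test. H1-2, a linker histone gene (ENSG00000187837.3), had 575 and 358 counts in A549 and 327 and 445 in A549/DDP, with a log2 fold change of -0.21 ± 0.45. H2BC21 had 425 and 323 counts against 350 and 446 (0.16 ± 0.43), and H2BC5 had 176 and 305 against 210 and 209 (-0.09 ± 0.62). H3C6 had 139 and 99 counts against 173 and 164 (0.59 ± 0.79). Their adjusted p-values by edgeR ran from 0.692 to 0.947.

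Near-identical copies could not be told apart gene by gene. H3C14 and H3C15 had the same deposited value in each library, 48.5 and 72.0 counts in A549 and 45.0 and 62.0 in A549/DDP, so their shared reads were split evenly between them. H4C15 had 576.4 and 816.6 counts in A549 and 335.4 and 0 in A549/DDP, while H4C14 had 199.6 and 321.4 against 216.6 and 475.0, so the 0 stands beside the highest value of its partner. The sum of H4C14 and H4C15 was 22.0 and 32.9 CPM in A549 and 18.9 and 13.99 CPM in A549/DDP. Neither gene passed the test (adjusted p of 0.657 for H4C14 and 0.541 for H4C15 by edgeR).

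**Figure D2:**
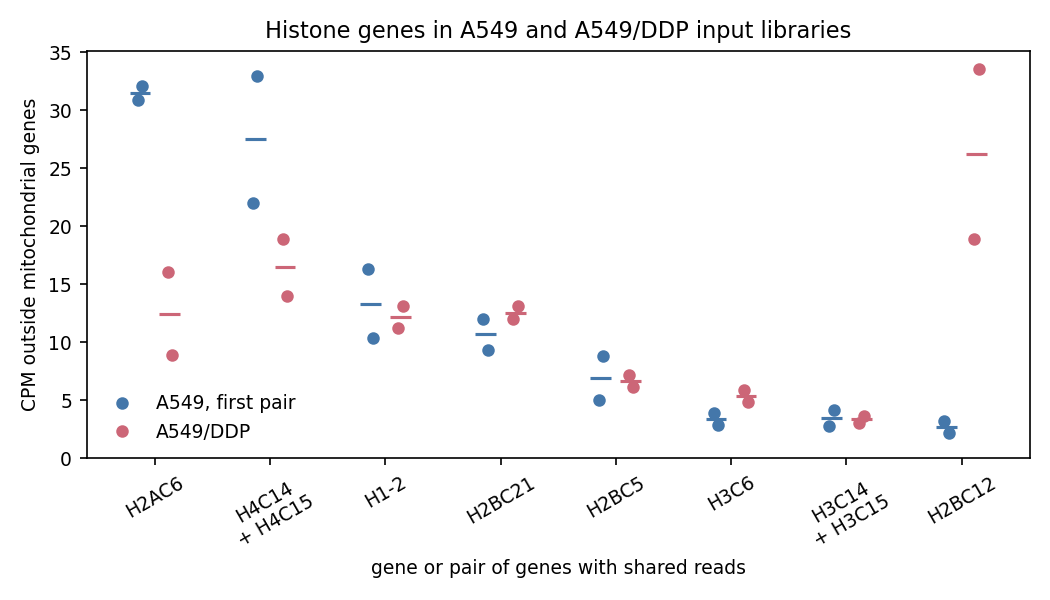
CPM outside the mitochondrial genes (linear axis from 0) of abundant histone genes, or sums of gene pairs with shared reads, in the 2 libraries of A549 (first pair) and of A549/DDP, with a line at each mean. H2BC12 stood at 18.9 and 33.5 CPM in A549/DDP against 3.26 and 2.23 CPM in A549, and H2AC6, which did not pass the test, at 16.0 and 8.86 CPM against 30.8 and 32.1 CPM.

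Members with few counts added little. Of the 64 genes 27 had no count in either library of the first A549 pair, and 15 had none in the 4 libraries of this pair and of A549/DDP. Values of some members differed widely between replicates of 1 group: H2BC4 had 18 and 59 counts in A549 but 107 and 4 in A549/DDP, and H3C10 had 26 and 46 against 40 and 1. H2BC18 had 57.4 and 137.0 counts in A549 and 32.0 and 122.0 in A549/DDP. None of these 3 genes passed the test.

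Genes of S phase, of histone mRNA processing and of histone handling were compared in the same test. Of 24 S phase genes 10 were called higher in A549/DDP and 0 lower, against 6.85% higher among all genes, with a median log2 fold change of 0.96. CCNE1, which encodes cyclin E1 and has the largest change of the list, went from 10.8 and 9.81 CPM to 37.0 and 37.6 CPM (log2 fold change 1.79, adjusted p of 0.0164 by edgeR). SLBP, which encodes the stem-loop binding protein of histone mRNA, rose from 21.01 and 26.5 CPM to 47.6 and 52.2 CPM (1.01, adjusted p of 0.0432). In bulk RNA, more cells in S phase and more of an RNA per cell cannot be told apart.

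Of the 21 factors of histone gene transcription and 3′ end processing, 1 rose (SLBP) and 1 fell, a smaller share than the 14.9% called among all genes. The one that fell was ERI1, an exonuclease that trims histone mRNA ends, with 66.6 and 79.3 CPM against 25.5 and 22.1 CPM (-1.67, adjusted p of 0.00889 by edgeR). NPAT, the coactivator of histone gene transcription, was at 16.2 and 17.9 CPM against 19.5 and 14.02 CPM and did not pass. Of 12 histone chaperones 2 fell and 0 rose, near the share among all genes, and the larger change was that of NAP1L1 with 786.7 and 746.8 CPM against 304.8 and 388.3 CPM (-1.21, adjusted p of 0.0117).

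Among the polyadenylated or replication-independent histone genes, H1-10, a linker histone gene, fell from 388.2 and 322.2 CPM to 102.2 and 112.9 CPM (log2 fold change -1.79, adjusted p of 0.00542 by edgeR), and H3-3B, which encodes the variant H3.3, fell from 885.5 and 405.4 CPM to 175.8 and 203.4 CPM (-1.86, adjusted p of 0.0318). H3-3A was at 86.6 and 61.7 CPM against 75.2 and 77.6 CPM. H2AZ1 (47.0 and 47.6 against 109.1 and 73.8 CPM) and H2AX (37.7 and 40.5 against 83.5 and 60.8 CPM) were higher in both A549/DDP libraries but did not pass, with adjusted p-values of 0.0659 and 0.0725 by edgeR.

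Some RNAs that carry no poly(A) tail also differed between the lines. Of 6 tested, 2 were called higher in A549/DDP and 0 lower, against 6.85% higher and 8.0% lower among all tested genes. The 2 were RN7SL1 and its near-identical copy RN7SL2, whose single values are uncertain, so they are not 2 separate results. RN7SL1, an RNA of the signal recognition particle, was at 4.83 and 3.84 CPM in A549 and at 40.1 and 68.5 CPM in A549/DDP (3.57, adjusted p of 0.00552 by edgeR). RN7SK was at 3.15 and 1.36 CPM against 13.1 and 11.8 CPM and RMRP at 1.30 and 0.174 CPM against 3.70 and 1.74 CPM, without passing the test. The part of such RNAs in the H2BC12 difference was not tested.

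The second A549 pair, whose titles differ from those of the first by a full stop, had a different histone profile. The 64 genes held 449 and 814 counts there, or 0.212% (95% Wilson interval 0.193% to 0.233%) and 0.318% (0.297% to 0.340%) of the nuclear counts. This was 2120 and 3179 CPM against 111.7 and 122.9 CPM in the first pair, a ratio of means of 22.6. The size of the ratio depended on the scaling: log2 was 4.50 on this scale, 5.63 with TMM scaling and 2.99 for summed TPM. Both libraries of the second pair lay above all 4 others in CPM and in summed TPM, where they had 1303 and 1809.

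In the edgeR test of the second against the first A549 pair 35 of the 64 genes passed the filter and 30 were called, all as higher in the second pair. Of 14258 tested genes 13.8% were called, 6.45% as higher and 7.39% as lower. The count of 30 cannot be read against these shares, because many members were tested only through the second pair, where a single count exceeds the filter's CPM minimum. Of the 35 members 18 reached the filter only through the second pair, so that their direction was largely set by the filter, and 17 of them were called as higher, as were 81.4% of the 86 genes of all kinds that passed in this way. The 16 members that reached the filter in both libraries of the first pair do not depend on this, and 13 of them were called as higher, against 6.06% of the 13895 such genes. The median log2 fold change was 4.36 for the 16 members and -0.71 for all such genes, so that the values below stand against a median that is not 0. The genes not called were H2AC25, H2BC11, H2BC21, H2BC26 and H3C6, named after their values were seen. The 13 called members that reached the filter in both libraries of the first pair had log2 fold changes from 2.47 (H4C15) to 6.96 (H3C10).

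**Figure D3:**
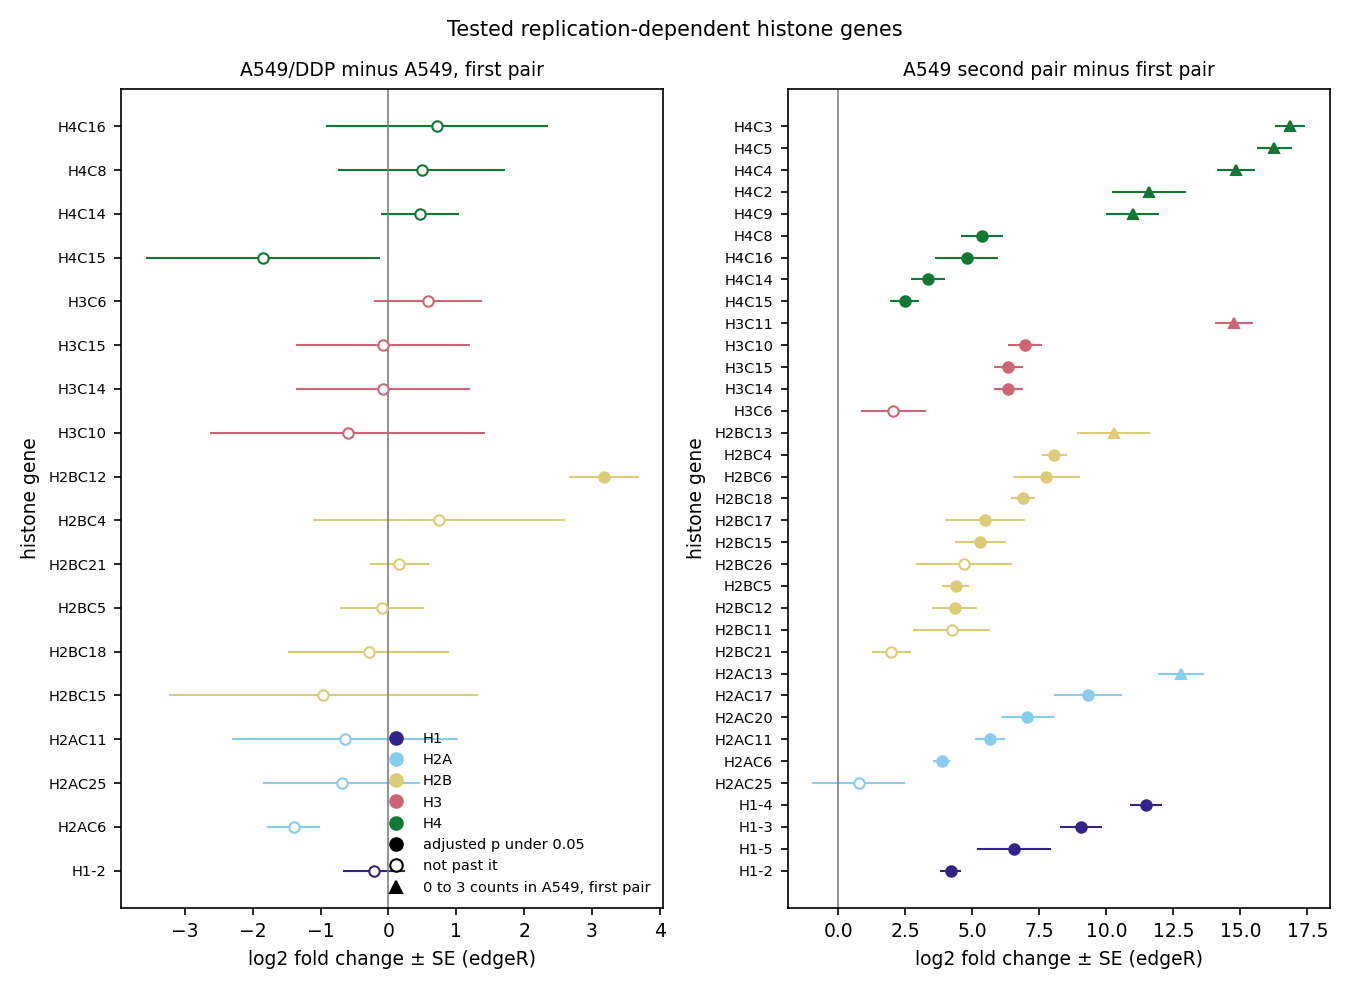
Log2 fold change ± SE from edgeR of the 18 histone genes tested between A549/DDP and the first A549 pair (left) and of the 35 tested between the A549 pairs (right), coloured by class and filled where the adjusted p-value was under 0.05. Only H2BC12 was filled on the left and 30 genes were filled on the right. Triangles mark genes with 0 to 3 counts in the first A549 pair, whose fitted values depend on the prior count.

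H4 genes led the second pair. H4C3 (ENSG00000197061.4, chr6:26103933-26104337) had 81 and 100 counts in the second pair, 0 and 0 in the first pair and 2 and 0 in A549/DDP. H4C5 had 34 and 89 counts against 0 and 0, and 4 and 0 in A549/DDP. H4C4 had 18 and 27 counts and 0 in all 4 deep libraries. With 3 counts per library as the floor, these 3 genes were at least 4497-fold, 2956-fold and 1108-fold higher in CPM in the second pair than in the first. All 3 reached the filter only through the second pair, so their direction was largely set by the filter. H4 genes encode the same core histone, and H4C14 and H4C15 led the class in the first pair. The pair H4C14 and H4C15 had 10 and 30 counts in the second pair, with a ratio of CPM of 2.99. H4C15 alone, with 3.1 and 21.2 counts, was called as higher (log2 fold change 2.47 ± 0.54, but -1.38 in limma on TPM plus 1), although its CPM overlapped between the pairs (14.8 and 82.9 against 16.3 and 23.6).

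In the H3 and H1 classes further genes at or near 0 in the first pair were abundant in the second. H3C11 had 16 and 27 counts in the second pair and 0 in the 4 other libraries, at least 1053-fold higher than in the first pair. H3C10 had 7 and 21 counts and H3C14 and H3C15 had 12 and 17.8 each. The pair H3C14 and H3C15 together thus had more counts than H3C11. H3C6 had 2 and 1 counts, against 139 and 99 in the first pair. In the H1 class, H1-4 had 21 and 46 counts in the second pair against 7 and 0 in the first and 10 and 0 in A549/DDP, and H1-3 had 12 and 22 against 20 and 0 and 1 and 0. H1-2 had 18 and 35 counts, with a log2 fold change of 4.19 ± 0.39, but 0.24 without passing the test in limma on TPM plus 1, where the pairs overlapped (47.4 and 32.3 against 36.4 and 58.7 TPM). H1-2 and H1-4 overlapped in the second pair in both CPM and TPM. H1-5 had 1 and 3 counts against 13 and 0 in the first pair and 0 and 1 in A549/DDP.

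H2A and H2B genes followed. H2AC6 had 34 and 64 counts in the second pair, or 160.5 and 249.9 CPM (log2 fold change 3.85 ± 0.31, but -0.44 in limma on TPM plus 1), and H2AC11 had 12 and 13. H2AC13 had 5 and 28.3 counts in the second pair against 1 and 0 in the first and 0 and 8 in A549/DDP. H2AC20 had 11 and 14 against 0 and 62 and 1 and 1. The H2AC17 gene had 5 and 12 counts, against 8 and 0 in the first pair and none in A549/DDP. These H2A genes were called as higher, although H2AC13, H2AC20 and H2AC17 were at 0 in 1 library of the first pair. These last genes reached the filter only through the second pair, so their direction was largely set by the filter.

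Of the H2B genes, H2BC18 had 22 and 49 counts in the second pair and H2BC4 26 and 37, with log2 fold changes of 6.89 ± 0.44 and 8.06 ± 0.47. H2BC4, with 18 and 59 counts in the first pair, reached the filter only through the second pair, so its direction was largely set by the filter. H2BC5 had 8 and 23 counts, or 37.8 and 89.8 CPM against 4.99 and 8.83 CPM in the first pair. H2BC12, with 5 and 7 counts, stood at 23.6 and 27.3 CPM, above the first pair (3.26 and 2.23 CPM) and within the range of A549/DDP (18.9 and 33.5 CPM). H2BC21, the H2B gene with the most counts in the first pair, had 5 and 4 counts and did not pass (1.98 ± 0.74, adjusted p of 0.0783 by edgeR).

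The calls of 5 further members rest on very few counts. All 5 reached the filter only through the second pair, so their direction was largely set by the filter. H2BC6 had 9 and 8 counts in the second pair, 24.5 and 0 in the first and 1 and 0 in A549/DDP. H2BC13 had 7 and 6 counts against 0 and 3 and 1 and 0, and H2BC17 had 1 and 2 against 21 and 0 and 2 and 0. H4C9 had 7 and 15 counts against 3 and 0, and H4C2 had 8 and 6 against 1 and 0, both with none in A549/DDP. For H2BC17 the call rests on 3 reads in all in the second pair, where 1 count is worth 4.72 or 3.91 CPM.

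More members were detected in the second pair despite its lower depth. In both of its libraries 41 of the 64 genes had a count, against 19 in both libraries of the first pair and 19 in both of A549/DDP. Of the 41, 12 had no count in the first pair and 7 had none in the 4 deep libraries. The shares of all genes with these patterns are not given here, so the numbers describe the members only. No gene had a count in both libraries of the first pair and in neither of the second. The 27 genes at 0 in the first pair held 38.1% and 37.4% of the histone counts of the second pair.

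The groups also differed in the length of the gene models that held the counts. The tables give for each gene a transcript length weighted by the estimated abundance of its isoforms. Genes with a length of at least 1000 bases (21 of the 64, taking the longest value over the libraries, with a limit chosen after the data were seen) held 72.1% and 77.4% of the histone counts in the first pair, 60.0% and 49.3% in A549/DDP and 40.8% and 42.8% in the second pair. In CPM, the other 43 genes, with shorter models, were at 31.1 and 27.7 in the first pair, 43.5 and 56.2 in A549/DDP and 1256 and 1818 in the second pair. The genes with longer models were at 80.6 and 95.2, 65.2 and 54.7, and 864.0 and 1361 CPM. The ratio of means between the A549 pairs was 52.2 for the shorter and 12.7 for the longer models.

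**Figure D4:**
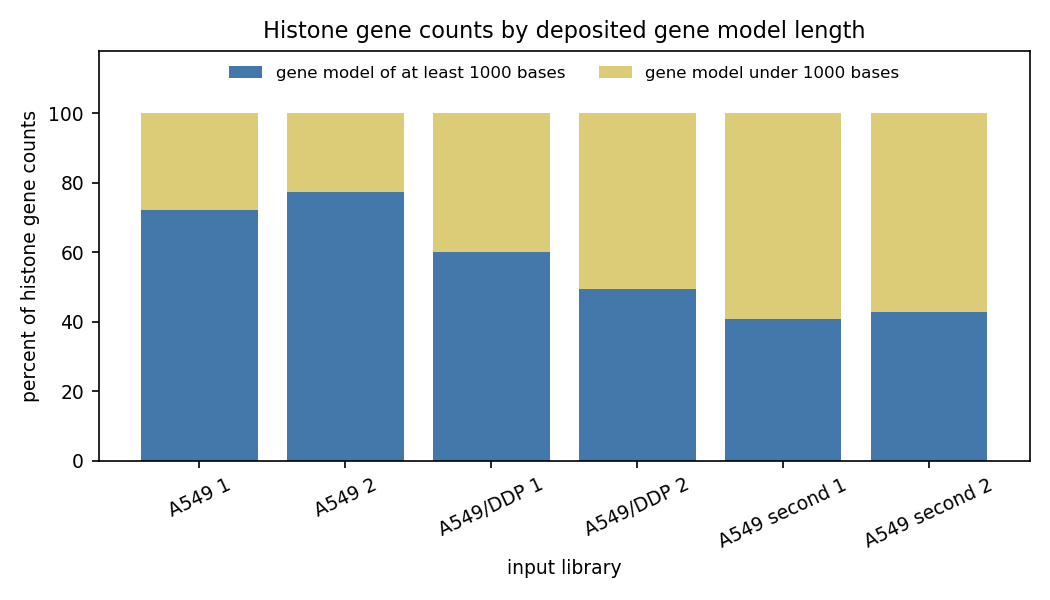
Percent of all histone gene counts in each input library that fell on genes with a deposited gene model of at least 1000 bases (21 genes) or under 1000 bases (43 genes). The share of the longer models was 72.1% and 77.4% in the first A549 pair and 40.8% and 42.8% in the second.

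Within single genes the estimated isoform length changed too. For H2BC5, which has 2 annotated transcripts, the deposited length was 789 bases in both libraries of the first pair and in A549/DDP replicate 2, 678.0 in A549/DDP replicate 1 and 496 in both libraries of the second pair. For H2AC6, with 3 transcripts, it stayed between 1552 and 1643 bases in all 6 libraries, longer than the 519 bases that the RefSeq gene spans. Other abundant genes of the first pair also had long models, with 2194 bases for H2BC21 and 2679 for H3C6, whereas H4C3, the leading gene of the second pair, had a model of 435 bases and H4C4 one of 312 bases.

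Per length, the order of the members also differed between the pairs. In the first pair the highest TPM were those of H1-2 (47.4 and 32.3) and H2AC6 (31.9 and 36.0), whose ranges overlap, followed by H4C15, H4C14, H2BC5 and H2BC12 with means of 16.3 to 20.1, which did not differ beyond their spread. In A549/DDP H2BC12 was first, with 109.2 and 203.2 TPM, followed by H1-2 with 32.5 and 38.8. In the second pair H4C3 was first with 340.2 and 343.7 TPM and H4C4 had 186.3 and 222.9. These TPM include the mitochondrial genes in their total, which lowers those of the second pair.

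Other RNAs differed between the A549 pairs beside the histone genes. Of 7 tested RNAs without a poly(A) tail 4 were called higher in the second pair and 0 lower, against 6.45% higher and 7.39% lower among all tested genes. SCARNA10, a small Cajal body RNA with the largest change of the list, was at 0 in both libraries of the first pair and at 99.1 and 121.1 CPM in the second. SCARNA10, SCARNA2 and SNORD3A had at most 4 counts in a library of the first pair and reached the filter only through the second. Of all genes that passed in this way 81.4% were called as higher, so their direction was largely set by the filter. RN7SL2 was at 10.1 and 8.98 CPM against 15042 and 18759 CPM, while RN7SL1, a near-identical copy, was at 0 in the second pair. Their deposited counts are not whole numbers, so reads were shared between genes and the single values of RN7SL1 and RN7SL2 are uncertain. RN7SK and RMRP were also at 0 in the second pair, where 3 counts equal 14.2 and 11.7 CPM. The part of library preparation in the histone difference was not tested, and the pair and its preparation cannot be told apart.

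Polyadenylated histone genes did not move as one group between the A549 pairs. H3-3A rose from 86.6 and 61.7 CPM to 193.6 and 122.9 CPM (log2 fold change 2.19) and H2AZ1 was at 47.0 and 47.6 CPM against 42.5 and 85.9 CPM (1.60), which was called as higher with TMM scaling although the CPM overlapped. H1-10 fell by 1.39 on the log2 scale, to 70.8 and 54.7 CPM. The largest fitted change was that of MACROH2A2, with 40.8 and 48.7 CPM against 0 and 3.91 CPM (adjusted p of 0.0363 by edgeR). H3-3B (505.2 and 320.2 CPM in the second pair) and H2AX (4.72 and 7.81 CPM) did not pass.

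Of the 24 S phase genes 0 rose and 3 fell between the A549 pairs, against 6.45% higher and 7.39% lower among all tested genes. These shares of all genes also apply to the next lists. The largest fitted change of the S phase genes, that of GINS2 with 15.8 and 29.6 CPM against 4.72 and 0 CPM, did not pass. Of the 21 transcription and processing factors 4 rose, which were the genes of the Sm proteins SNRPD3, SNRPE, SNRPF and SNRPG, and 3 fell. SLBP (14.2 and 11.7 CPM in the second pair) and NPAT (18.9 and 7.81 CPM) did not pass, nor did LSM11, which was at 6.69 and 15.7 CPM in the first pair and at 0 in the second. Of 12 chaperones 1 was called higher, NAP1L1, whose CPM overlapped (786.7 and 746.8 against 849.9 and 679.5), and 4 fell, among them HIRA, which was at 30.2 and 35.5 CPM in the first pair and at 0 in the second.

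The second pair of A549 inputs was then taken as the reference in place of the first. There, 27 of 31 tested histone genes were called lower in A549/DDP and 0 higher. Among all tested genes 27.2% were called in either direction. The count of 27 cannot be read against this share. Members without a count in A549/DDP, such as H4C4 and H3C11, could pass the filter only through the second pair, which set their direction. H2BC12 had a log2 fold change of -0.96 with an adjusted p of 0.23 by edgeR. With both pairs together, edgeR called 0 of 37 members and 4.1% of all genes. H2BC12 was at 1.37 on the log2 scale in that fit. An unadjusted p under 0.05 was reached by 22 of the 37 members. That count cannot be set against the 4.1%, because the share of all genes at the unadjusted threshold is not given here. H2BC12 was thus called as higher in A549/DDP against the first A549 pair and not against the second pair or both pairs together.

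Called m6A peaks were found at 10 of the 64 genes. The authors deposited 1 list of peaks for each m6A-seq library, without read counts, so the depth behind the peaks is unknown. A peak was named for 9 and 7 histone genes in the A549 replicates 1 and 2, and for 3 and 1 in those of A549/DDP. Of the 18 members tested above, 8, 6, 3 and 1 had a peak, against 43.7%, 30.6%, 40.7% and 22.2% of all 16406 tested genes in the same libraries. The lists held 26320, 14576, 27244 and 10661 peaks in the same order.

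H1-2 was the only member with a peak in all 4 libraries. Its peaks lay between chr6:26055836 and chr6:26056428, inside the RefSeq gene, with the authors' p-value from 1.6e-15 in A549 replicate 1 to 0.0087 in A549/DDP replicate 2. H2AC6 and H2BC5 had peaks in 3 libraries, all but A549/DDP replicate 2. For H2AC11, H2AC25 and H2BC21 peaks were called in each A549 library but in no A549/DDP library. The share of all genes with that pattern is not given here, so it cannot be read as a trait of these genes. No peak was named for H2BC12 or for any H4 gene.

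**Figure D5:**
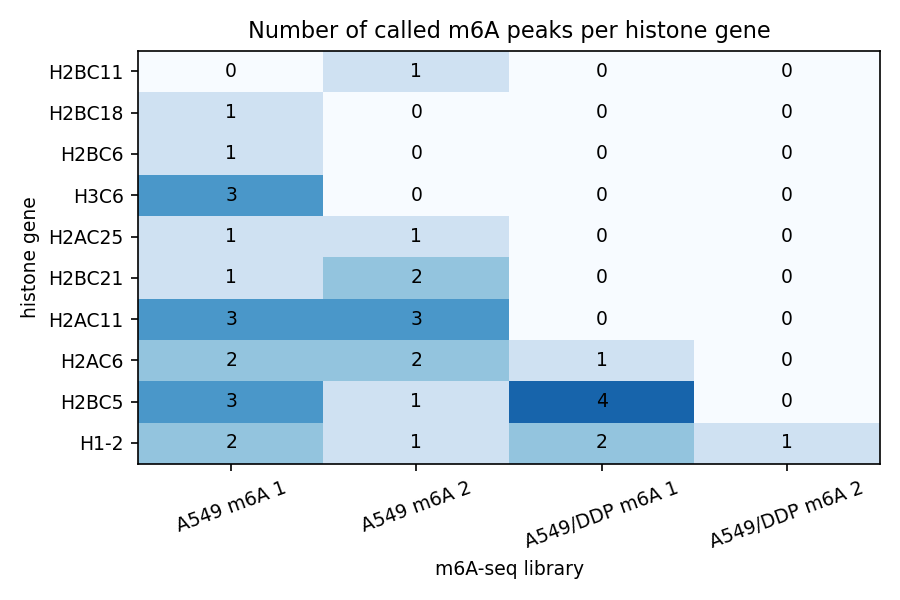
Number of called m6A peaks (printed in each cell, darker for more) for the 10 histone genes with a peak in at least 1 of the 4 m6A-seq libraries. H1-2 had 1 or 2 peaks in every library, and 6 genes had a peak in both A549 libraries against 1 in both A549/DDP libraries. The shares of all genes with a peak in both libraries are not given, and A549/DDP replicate 2 had the fewest peaks (10661).

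Some of these peaks lay outside the RefSeq gene. Of 36 peaks 8, at 4 genes, lay beyond the RefSeq span of the gene they were named for. A RefSeq span can be long, with 13229 bases for H2BC5. Peaks at its far end, such as chr6:26171204-26171349 in A549 replicate 1, therefore count as inside. The second H2AC6 peak of each A549 library, at chr6:26138675-26138822 and chr6:26138724-26138871, began 13985 and 14034 bases after the end of the RefSeq gene. The H2BC6 peak lay 11205 bases and the H2BC11 peak 6069 bases outside the span, and 4 peaks of H2AC11 lay 307 to 756 bases beyond it. For H2BC5, the peak of A549 replicate 2 had 2 exon blocks across chr6:26158533-26171349, so it spanned a splice junction. With genes assigned by position in place of the name, 8 genes had a peak in at least 1 library.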

How the data were processed

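Input RNA and m6A-seq of A549 and A549/DDP cells, 10 libraries in all with 2 per group, were analysed, and groups and replicate numbers were taken from the labels. For each input library the authors deposited, per gene, expected counts, which are RSEM's estimates and not normalized. The deposited tables also hold TPM and FPKM, which the authors scaled for transcript length and library size. The called peaks of each m6A-seq library were deposited with a p-value, and whether this is raw or adjusted is not given. The submitters' processing notes name STAR, RSEM, bedtools and the build hg38, without versions. The deposited tables share reads of near-identical genes between copies, so single members of such pairs are uncertain. The tables were joined to symbols by Ensembl identifier, which matched 56948 of 58037.

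For each test, made in R 4.3.3 with the quasi-likelihood functions of edgeR 4.0.16, expected counts were rounded, genes of low count were removed by filterByExpr and libraries were scaled by TMM. P-values were adjusted by Benjamini-Hochberg over every gene tested. Standard errors are the absolute log2 fold change over the square root of F, an approximation. CPM shown are scaled to 1000000 counts outside mitochondrial genes. A count of 0 was given a floor of 3 counts per library. DESeq2 1.42.0 and limma 3.58.1 (log2 of FPKM or TPM plus 1, or TPM plus 0.1), other filters and scalings, a replicate block and leaving out libraries were alternatives. The steps were tested on simulated data. Promoter windows came from RefSeq (GRCh38.p14), and peak coordinates are counted from 1. Python 3.11.15 was used for tables and plots.

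The members and the gene lists were chosen with earlier results of these data known. Counts in every library were given for the 4 members per class with the highest mean TMM CPM over the 3 groups of input libraries. The same was done for up to 6 further called members per direction and comparison with the largest change. From the lists, fixed genes and the member with the largest change were named. One result that this rule would name is not reported here. Members of high count outside this rule (H2BC21, H3C6, H4C14, H2AC25) were added after their values were seen.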

Additional observations from a re-analysis of the deposited data

How the results depend on the processing

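The rise of H2BC12 in A549/DDP passed in 14 of 16 alternatives. The number of histone genes called between the lines was 1 and became 2 with DESeq2, with at least 10 counts in every library and with all 6 input libraries in the fit, and 3 with no filter beyond 1 count. The added gene was H2AC6 in the first 3 of these, as lower. With the replicate number as a block it was also 2, but same-numbered libraries did not deviate together (correlation 0.0196 between the lines and 0.0817 between the A549 pairs), so the numbers are not shown to pair the samples. Leaving out 1 library at a time gave 1 to 3 called genes, with 3 without A549/DDP input replicate 1, where H4C15 is at 0 in the remaining library, and 2 without A549 input replicate 2. With the second A549 pair as reference 27 were called, all lower, a count that depended on the filter as described above, and with both pairs 0. In the first of these H2BC12 was at -0.96 and H2BC4 at -7.18 on the log2 scale. The log2 difference of the summed genes was -0.15, and -0.10 with upper-quartile scaling, -0.095 as a share of nuclear counts (an alternative chosen after seeing the data), 0.57 for summed TPM and -5.59 with the second pair as reference.

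Between the A549 pairs 30 genes were called. This became 7 of 7 tested with at least 10 counts in every library, where 1113 of all 1845 tested genes were called. With the replicate block it was 21. It ranged from 18 to 23 with 1 library left out, 18 without A549 second input replicate 2. The log2 difference of the sums was 5.63, and 2.99 for summed TPM, 4.50 as a share of nuclear counts and 5.28 to 5.91 with 1 library left out. In limma, H2AC6 was at -0.44 (TPM plus 1) and -0.46 (TPM plus 0.1), and H4C15 at -0.27 (FPKM), -1.38 (TPM plus 1) and -1.55 (TPM plus 0.1). H1-2 was at 0.24 (TPM plus 1 and plus 0.1), without passing, and H1-5, H2BC5 and H2BC17 did not pass there either. In these tables most genes were lower in the second pair, with medians of all genes from -4.61 to -2.47.

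Histone genes with a peak in both A549 libraries numbered 6, or 2 when a peak p-value of at most 1e-05 was asked, without a matching share of all genes. In both A549/DDP libraries the number was 1, or 0 at that p-value, and 1 to 3 if 1 library sufficed, with 3 without A549/DDP m6A replicate 2. The low depth of the second pair limits single genes with fewer than 10 counts there, and the unknown depth of the m6A-seq libraries limits every absence of a peak. The 2 libraries per group limit all tests.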

Other observations

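The histone loci differed in their share of the RNA. The 52 genes of chromosome 6 were at 69.4 and 66.6 CPM in the first A549 pair, 71.4 and 72.2 CPM in A549/DDP and 1733 and 2601 CPM in the second A549 pair. The 9 genes of chromosome 1 near 149 Mb, among them H2BC21, H2BC18 and the pair H4C14 and H4C15, were at 38.4 and 52.2 CPM, 35.1 and 34.4 CPM, and 363.6 and 566.3 CPM in the same order. Their share of all histone counts was 34.4% and 42.5% in the first pair and 17.1% and 17.8% in the second. H2AC25 and H2BC26, on chromosome 1 near 228 Mb, had 126 and 90 counts together in the first pair, 44 and 71 in A549/DDP and 2 and 1 in the second pair. No test was made of these sums.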
